A study of Mus musculus with 94 samples.

Results

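The cortical tubules of injured kidneys were examined on day 14 after ischemia-reperfusion injury (IRI) and compared with those of uninjured controls. The data come from digital spatial profiling, in which probes on the RNA of a tissue section give up their barcodes where UV light is shone, and the barcodes are read by sequencing. A segment is the area of one cell type within such a region. Segments were chosen by their labels alone: those marked as cortex and PanCK from the vehicle day 14 and control groups. This gave 8 of the 94 segments, 4 from day 14 and 4 from controls, and each group of 4 came from 2 sections with 2 cortical regions each.

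The mice were C57BL/6 males. Those of the day 14 group received vehicle before IRI of 1 kidney, and the injured kidney was taken on day 14. The sources differ on when the first dose was given, as the labels place it the day before surgery and the study's text shortly before it, with repeated doses until day 14. The other injured groups received vehicle or the SYK inhibitor entospletinib and were taken on day 1, 7, or 14. The protocol in the labels names contralateral kidneys without injury as controls, the study's methods also mention kidneys of healthy mice, and the titles of the control segments name neither. Which of these the 2 control sections were is not given, so a control kidney may have belonged to a mouse whose other kidney was injured. A section is told apart by the prefix of its label. The labels do not say in words that a prefix is 1 mouse. In the main comparison the p-values measure only the spread between sections of a group (n = 2 per group). It is pooled over the 14 sections of all 7 groups. The tests of medulla against cortex and of macrophage against tubule segments measure how much that difference varies between sections.

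PanCK is a mix of antibodies to cytokeratins, the filament proteins of epithelial cells. The study outlined tubules by PanCK, with or without CD10, staying clear of glomeruli. CD10 is a brush border protein of the proximal tubule, the part of the nephron that fills most of the cortex and reabsorbs most of the filtrate. Proximal tubule cells depend on oxygen and are damaged early by ischemia. Surviving cells lose their mature program, divide, and replace lost neighbours, and where this repair fails the epithelium stays inflamed and fibrosis follows. Macrophages gather around such tubules. They were outlined in the same regions by IBA1, a protein of the macrophage cytoskeleton.

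The 20175 probes appear in the files as identifiers that the files do not pair with genes, so no tubule or macrophage marker could be looked up and the labelled cell type could not be checked against known genes. Identifiers are therefore printed for only 4 probes, 2 that rose and 2 that fell. The 8 segments held 2226395 to 5688838 counts, about 97% of reads aligned in each, and 0 probes had a count of 0. Summed by section, the totals were 4582780 and 10907396 counts in the controls and 5574454 and 6248900 on day 14. Levels are given as CPM (a probe's counts per fixed total of counts, after upper quartile normalization), and all changes as log2 fold changes of day 14 over control. In segments, fewer cells of a type and less RNA per cell cannot be told apart.

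On day 14, 471 probes were higher and 125 were lower in cortical tubules than in controls at an adjusted p under 0.05 by edgeR's quasi-likelihood test and a log2 fold change beyond 1 in either direction. These 596 probes were 2.95% of those tested, 2.33% higher and 0.62% lower. The higher probes had a median change of 1.42, with 91 above 2 and 18 above 3. The lower ones had a median of -1.22, with 7 below -2. The median over all 20175 probes was -0.27, so a probe with no fold change relative to the others read slightly below 0. With TMM normalization that median was -0.08 and the calls were 784 higher and 50 lower. With DESeq2 on the same sums they were 868 higher and 104 lower. All 596 probes kept their direction in both, and 518 and 535 of them, respectively, were called again.

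**Figure D1:**
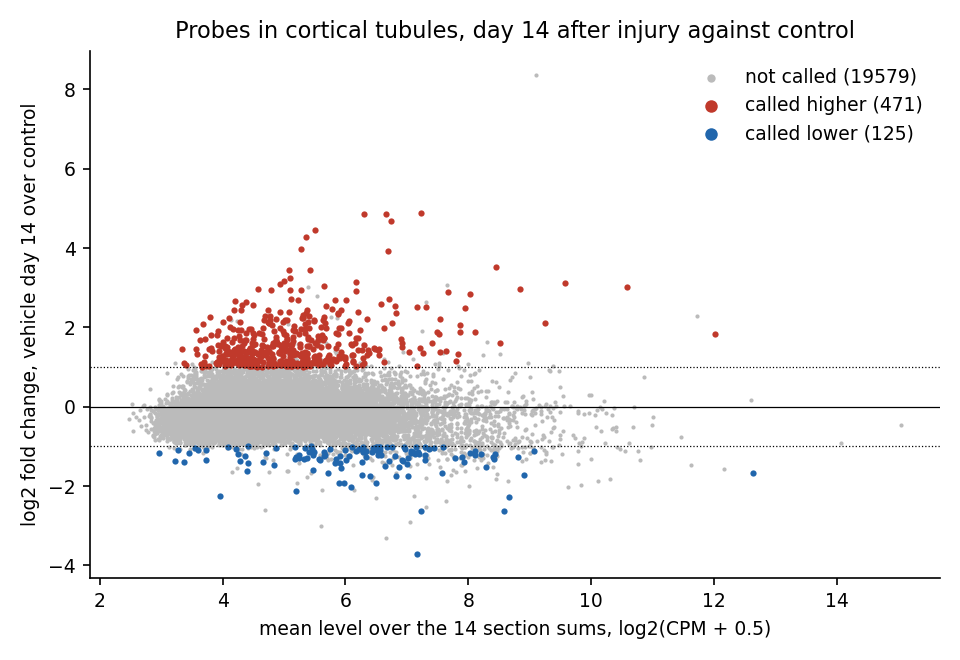
Each point is 1 probe, with its mean level over the 14 cortical tubule sums on the x axis (log2 CPM with 0.5 added) and its log2 fold change, vehicle day 14 over control, on the y axis. The 471 probes called higher reached 4.89 and the 125 called lower reached -3.71, and the highest point of all, at 8.37, was not called.

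The number of calls depended on single sections. Without day 14 section 1 there were 822 higher and 4033 lower probes, and without day 14 section 2 there were 146 and 1. Without control section 1 the counts were 24 and 1, and without control section 2 they were 334 and 282. The 596 probes had the same direction in each of these fits. A group left with a single section borrowed its spread from the rest. The 2 sections of day 14 also stood at different distances from the controls. The segments of section 1 correlated with control segments at 0.919 to 0.949 across probes, and those of section 2 at 0.823 to 0.859. Segments of the same section correlated at 0.969 to 0.984. Those of the 2 day 14 sections correlated with each other at 0.919 to 0.931, and those of the 2 control sections at 0.952 to 0.958. Day 14 section 1 was thus about as near to the controls as to day 14 section 2.

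Higher and lower probes differed in level. With the probes split by mean level into 3 groups of 6725, 60 were higher and 11 lower in the lowest group, 197 and 11 in the middle group, and 214 and 103 in the highest group. The median change was -0.37 in the lowest, -0.24 in the middle, and -0.14 in the highest group. How far a low level keeps a fall from being called was not tested. Among the 500 most abundant probes, ranked in the 10 sections of the groups not compared here, 14 (2.8%) were higher and 17 (3.4%) lower. Over all probes 2.33% were higher and 0.62% lower, so the higher share of the 500 was near that of all probes. The median change of the 500 was -0.47. The higher probes together made up 1.40% to 1.97% of the counts of a control segment. On day 14 this share was 5.44% and 5.29% in section 1 and 9.56% and 9.88% in section 2. The lower probes made up 2.79% to 3.36% of the counts in control segments and 1.03% to 1.45% on day 14. These shares describe the calls and are not a second test of them.

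In the separate segments, all 4 of day 14 lay above all 4 controls for 458 of the 471 higher probes. They lay below all 4 controls for each of the 125 lower probes. Over all probes, 8.96% had every day 14 segment above every control and 12.4% had every one below. Since the segments are those of the comparison itself, the separation adds nothing to the calls. Beyond the calls, 108 probes with a change above 1 and 225 with a change below -1 did not pass the adjusted p.

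The probe RTS0063686 had the highest change among the separated probes. It measured 85.4 and 75.4 CPM in control section 1 and 47.0 and 40.3 CPM in control section 2. On day 14 it measured 949 and 843 CPM in section 1 and 2452 and 3120 CPM in section 2. Both day 14 sections thus stood far above the controls, and section 2 was the higher. The log2 fold change was 4.89 (SE 0.62, adjusted p = 0.00219), a 29.7-fold higher level.

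RTS0068347 came next, and its segments fell in the same order. The control segments held 62.0, 36.7, 31.0, and 30.7 CPM, and those of day 14 held 595 and 506 CPM in section 1 and 1525 and 1981 CPM in section 2. Its log2 fold change was 4.85 (SE 0.61, adjusted p = 0.00219). Without control section 1 the adjusted p was 0.0618, while leaving out any other section kept the call.

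The lowest change belonged to RTS0065847. It held 224, 266, 444, and 519 CPM in the control segments and 26.5, 33.2, 21.4, and 29.8 CPM on day 14. Here the 4 day 14 segments were close to each other and the controls were spread. The day 14 values were near the median of all probes in those segments, 17.9 to 24.1 CPM. How much of such low values is background was not tested. The log2 fold change was -3.71 (SE 0.76, adjusted p = 0.0188), a 13.1-fold lower level. RTS0075938 held 915, 1024, 1080, and 1020 CPM in controls and 117, 143, 283, and 101 CPM on day 14. It changed by -2.64 (SE 0.56, adjusted p = 0.0217). Leaving out control section 1, control section 2, or day 14 section 2 ended both calls, with adjusted p from 0.0585 to 0.345 for RTS0065847 and from 0.0517 to 0.134 for RTS0075938.

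**Figure D2:**
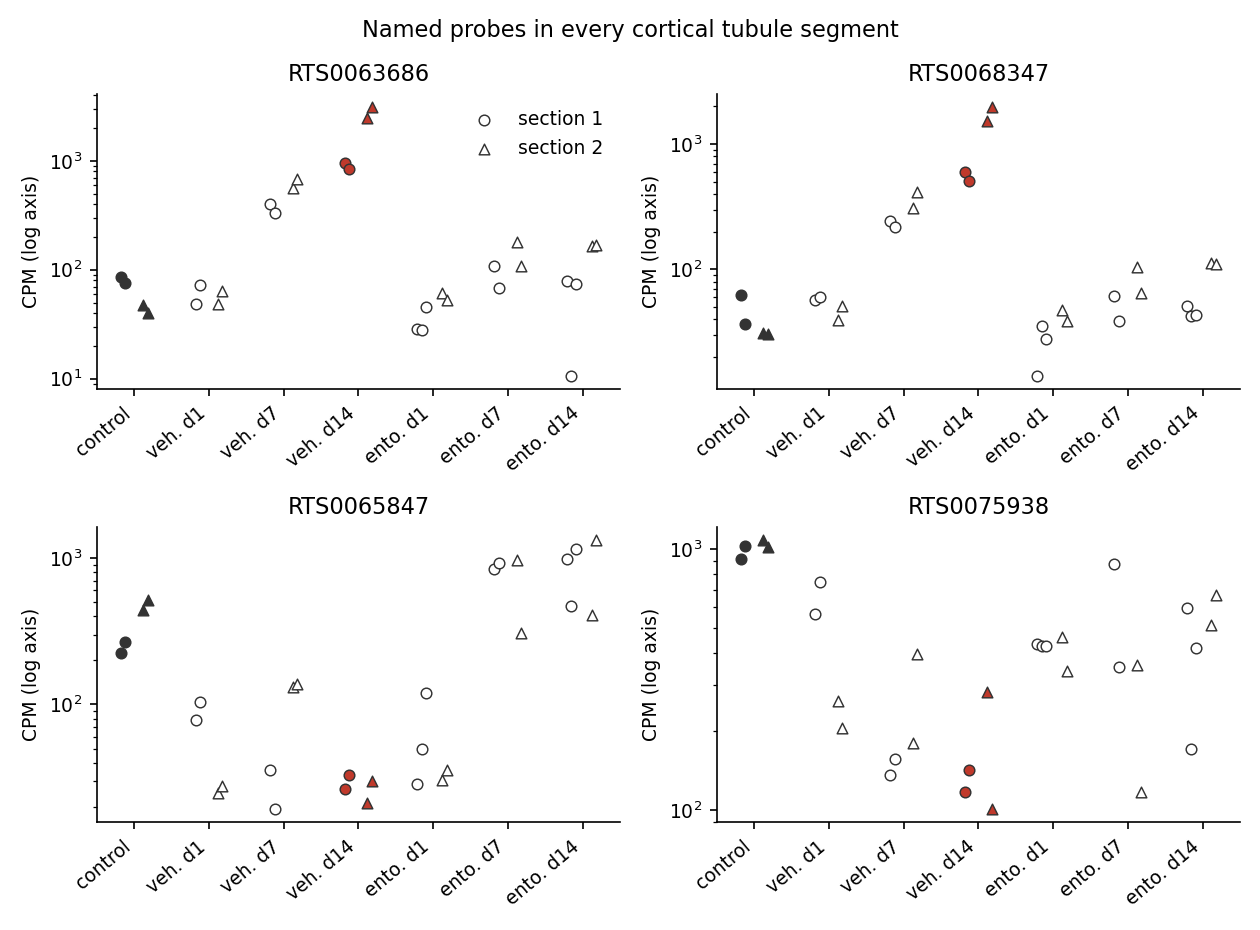
Each point is the CPM (log axis) of a named probe in 1 cortical tubule segment, with circles for section 1 and triangles for section 2 of each group (veh., vehicle; ento., entospletinib; d, day). In vehicle-treated mice RTS0063686 had section sums of 63.6 and 58.1 CPM on day 1, 370 and 626 CPM on day 7, and 882 and 2755 CPM on day 14.

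The same probes in the other cortical tubules placed day 14 in the course after injury. On day 1 in vehicle-treated mice RTS0063686 measured 63.6 and 58.1 CPM, within the 79.9 and 43.1 CPM of the control sums, and RTS0068347 measured 58.4 and 47.0 CPM against 48.9 and 30.5 CPM. On day 7 RTS0063686 reached 370 and 626 CPM and RTS0068347 231 and 369 CPM, between the levels of controls and day 14. RTS0065847 was already at 93.4 and 26.6 CPM on day 1, against 244 and 479 CPM in the control sums, and RTS0075938 at 675 and 224 CPM against 966 and 1039 CPM. On day 7 RTS0065847 measured 28.7 and 134 CPM, and on day 14 30.1 and 25.3 CPM. RTS0075938 measured 142 and 305 CPM on day 7 and 131 and 191 CPM on day 14. For both of these probes the values of day 7 and day 14 overlapped. With entospletinib, RTS0063686 measured 120.1 ± 63.7 CPM (SD, n = 2) on day 14 and RTS0068347 78.1 ± 44.0 CPM (SD, n = 2). RTS0065847 measured 989 ± 83.9 CPM (SD, n = 2), above both control sums, and RTS0075938 measured 552 ± 62.0 CPM (SD, n = 2), below both. These values are given beside those of vehicle and were not tested here.

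The probes called on day 14 were also followed as sets. The median log2 difference of the 471 higher probes from the control mean was 0.26 and 0.32 in the 2 vehicle sections of day 1 and 0.79 and 0.82 in those of day 7. On day 14 it was 1.05 in section 1 and 1.75 in section 2. On day 7, 467 and 470 of the 471 probes lay above both control sections, as did 9076 and 5874 of all 20175 probes. The 125 lower probes had medians of -0.42 and -0.72 on day 1, -1.13 and -0.76 on day 7, and -0.99 and -1.46 on day 14. Day 7 and day 14 thus overlapped for the lower set. With entospletinib on day 14 the medians were 0.12 and 0.29 for the higher set and -0.30 and -0.14 for the lower set. All these differences share the same 2 control sections, and the day 14 values were used to choose the sets.

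**Figure D3:**
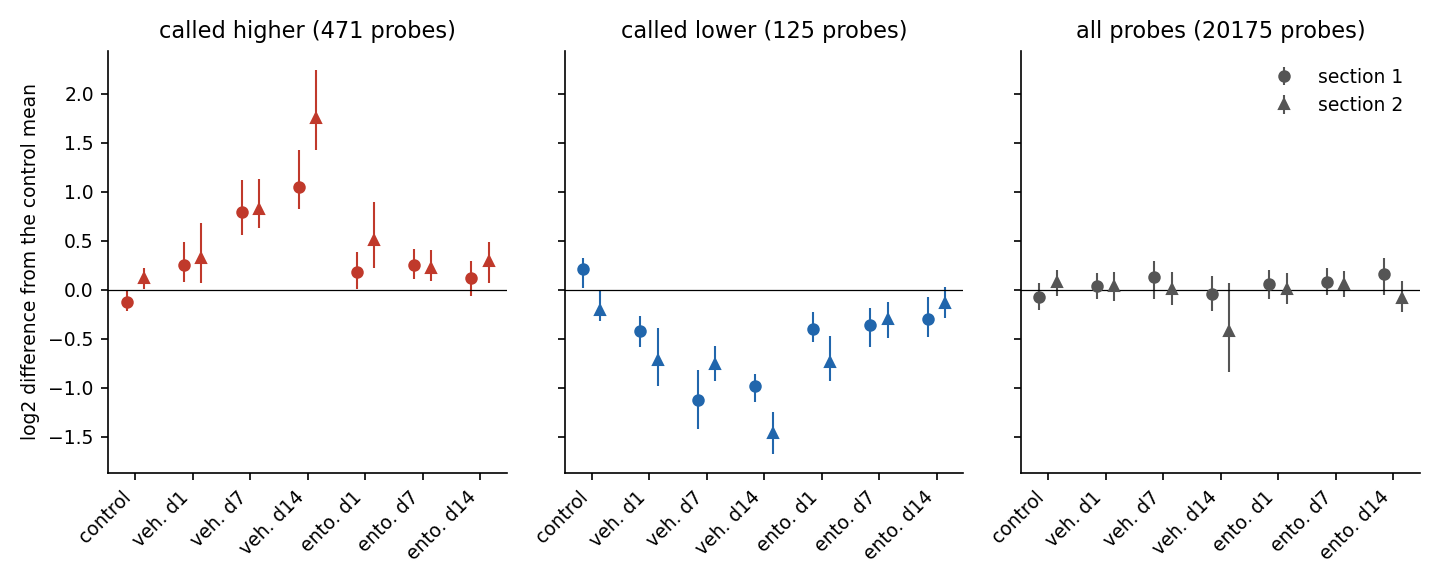
Points are the median log2 difference from the control mean for each section of the 7 groups (circles, section 1; triangles, section 2), and bars run from the lower to the upper quartile over probes. The set called higher lay at 0.79 and 0.82 in vehicle sections of day 7 and at 1.05 and 1.75 on day 14, while the median of all probes was -0.42 in day 14 section 2.

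Day 14 section 2 also differed from the other sections in the bulk of its probes. Its median over all probes was -0.42 from the control mean, against -0.05 in section 1. The 5th percentile of probe levels was 5.9 and 5.2 CPM in its segments, 8.7 and 8.9 CPM in those of section 1, and 7.5 to 10.6 CPM in controls. The part of this shift in the calls was not tested beyond the fits without the section. The probe with the highest change of all, 8.37, was singled out after its values were seen. It was not called and had 28 to 108 counts in 6 segments, but 26981 and 44562 counts in the 2 segments of section 2.

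With no gene names, the probes were described by where else they were high. Probes were listed as macrophage-leaning or tubule-leaning by a comparison of the 2 kinds of segment in the 10 sections of the other 5 groups, which gave 395 (1.96%) and 107 (0.53%) probes. A comparison of medullary with cortical tubules in the same sections gave 46 medulla-leaning (0.228%) and 134 cortex-leaning probes (0.664%).

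Of the 395 macrophage-leaning probes, 175 (44.3%) were higher and 0 lower in cortical tubules on day 14, with a median change of 1.06. Over all probes 2.33% were higher and 0.62% lower, with a median of -0.27. At an unadjusted p under 0.05 the list's numbers were 322 and 1, beside 1845 and 3480 of all 20175 probes. DESeq2 called 254 and 0 of the list, beside 868 and 104 of all probes. RTS0063686 and RTS0068347 were both on the list. Summed over the list, control tubule segments held 11401 to 12493 CPM. Those of day 14 held 27804 and 22177 CPM in section 1 and 48486 and 53838 CPM in section 2, so that all 4 lay above the controls and section 2 above section 1. In the macrophage segments of the same cortical regions the sum was 26526 to 43185 CPM in controls and 91538 to 139394 CPM on day 14. The list thus moved with the day 14 calls in tubules, and its part in them was not tested. The other 296 of the 471 higher probes were not on the list. With the list removed before the fit, 297 probes were higher and 86 lower. Without day 14 section 2, 64 of the 395 were called higher and the median was 0.54, and without control section 1 only 8 were called, with a median of 0.95. Without control section 2, 106 were called, and without day 14 section 1, 264.

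The lists drawn from tubules differed in the sign of their medians, and their shares by edgeR stand beside the same 2.33% higher and 0.62% lower over all probes. At an unadjusted p under 0.05 by edgeR, 1845 of all 20175 probes were higher and 3480 lower. DESeq2 called 868 of all probes higher and 104 lower. The edgeR calls over all probes without a section are those given above. The 134 cortex-leaning probes had a median change of -0.91, with 5 (3.73%) lower and 0 higher, and RTS0075938 was one of those 5. At an unadjusted p under 0.05, 60 were lower and 2 higher, and DESeq2 called 19 lower and 2 higher. Their sum was 104496 and 104980 CPM in control section 1, 73352 and 73283 CPM in control section 2, 56581 and 58490 CPM in day 14 section 1, and 29086 and 36472 CPM in section 2. The groups did not overlap, although the 2 control sections were also far apart. The 107 tubule-leaning probes had a median of -0.77, with 7 (6.54%) lower and 0 higher by edgeR, 45 and 2 at an unadjusted p under 0.05, and 13 and 1 by DESeq2. Their sum did overlap, at 31182 to 49893 CPM in controls and 21236 to 35775 CPM on day 14. The 46 medulla-leaning probes had a median of 0.48, with 10 (21.7%) higher and 0 lower by edgeR, 20 and 0 at an unadjusted p under 0.05, and 13 and 0 by DESeq2. Their sums were 2325 to 2663 CPM in controls and 3126 to 5602 CPM on day 14. The tubule-leaning and cortex-leaning lists share 15 probes. Without control section 1, 0 probes of either were lower by edgeR's test, with 15 tubule-leaning and 21 cortex-leaning probes lower at an unadjusted p under 0.05. Without day 14 section 2 the edgeR counts were again 0, with 14 and 12 at an unadjusted p under 0.05, and without day 14 section 1 they were 36 and 56. Of the medulla-leaning probes, 0 were higher without control section 1, with 16 at an unadjusted p under 0.05, and 3 without day 14 section 2. The medians of all 4 lists kept their sign without any 1 section and with TMM or DESeq2.

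**Figure D4:**
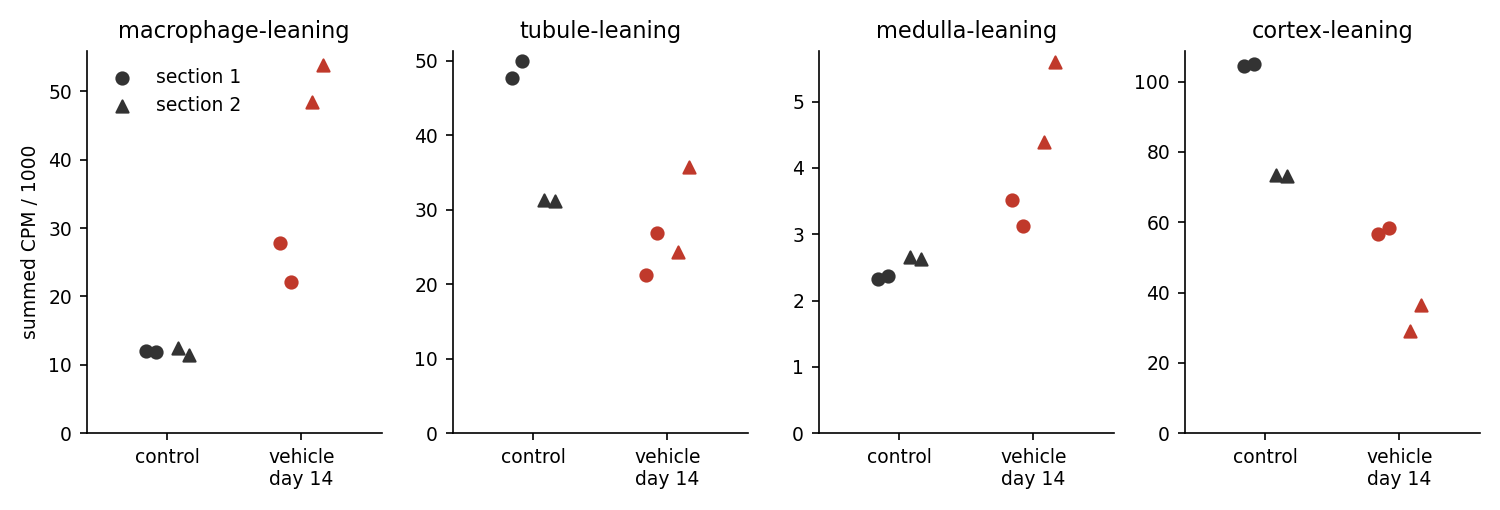
Points are the summed CPM (axes in units of 1000 CPM, from 0) of each probe list in the 8 cortical tubule segments, with circles for section 1 and triangles for section 2. The macrophage-leaning sum was 11401 to 12493 CPM in controls and 22177 to 53838 CPM on day 14, and the tubule-leaning sum overlapped between the groups.

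In the control sections themselves, 312 of the 471 higher probes (66.2%) had a higher level in cortical macrophage than in cortical tubule sums, against 36.3% of all probes. Of the 125 lower probes, 12 (9.6%) did. The control tubule sums entered both this comparison and the choice of the probes. A low value there favours both a higher call and a higher level in macrophages, so these shares are no separate support. The macrophage sums of the controls were shallow, at 43422 and 151890 counts against 1618433 and 816372 on day 14.

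The day 14 change was next compared with that in the macrophage segments of the same cortical regions and in the medullary tubules of the same sections. The 471 higher probes had a median change of 1.37 in cortical tubules on the scale of mean log2 CPM, 1.69 in medullary tubules, and 1.86 in macrophage segments. In the medulla 470 of them lay above control and in macrophage segments 455, against 6226 and 11461 of all 20175 probes. The 125 lower probes had medians of -1.22, -1.58, and -1.30, and 0 of them lay above control in the medulla and 15 in macrophage segments. The medians of all probes were -0.25, -0.27, and 0.29. Each control section held only 1 medullary tubule region, and these regions were unlike. The medulla-leaning sum was 25758 CPM in that of control section 1 and 4019 CPM in that of control section 2. The cortex-leaning sum was 30692 and 61628 CPM, respectively. The part of this in the medullary changes was not tested beyond the fits without a section.

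A test of the difference found 49 probes (0.243%) whose change differed between medulla and cortex at an adjusted p under 0.05. For 41 the medullary change was the more positive, by 1.07 to 2.97, and their median change in cortex was 0.40. Of these, 7 were among the higher probes of the cortex, which were 2.33% of all probes. For the other 8 it was the more negative, with differences of -2.09 to -1.24. Of these, 2 were higher and 1 lower in cortex, beside 2.33% and 0.62% of all probes. Leaving out a section gave 10 to 211 such probes, the lowest without control section 1 and the highest without day 14 section 2. Between macrophage and tubule segments the change differed for 9 probes (0.0446%), 1 more positive and 8 more negative in macrophages. Among the 9 were 0 of the 596, which made up 2.95% of all probes, so this 0 is not read as a difference. At an unadjusted p under 0.05 there were 1252 and 1465 probes. The macrophage count was 0 without control section 1, with 1389 at an unadjusted p under 0.05, and 49 without day 14 section 2. Of the 4 named probes 0 passed either test, with adjusted p of 0.449 or more by edgeR. RTS0063686 measured 529 and 1134 CPM in the cortical macrophage sums of controls, from 24 and 180 counts, and 5958 and 10525 CPM on day 14. Its level was thus higher in macrophage than in tubule sums in both groups. For RTS0063686 the change in medulla minus that in cortex was -0.20 (SE 0.52), and for RTS0065847 it was -0.42 (SE 1.36), both smaller than their errors. Between macrophage and tubule segments the difference was -1.61 (SE 0.63) for RTS0063686, -1.29 (SE 0.73) for RTS0068347, and -1.05 (SE 0.38) for RTS0075938. By these estimates RTS0063686 and RTS0068347 rose less, and RTS0075938 fell more, in macrophages. The adjusted p by edgeR was 0.581, 0.799, and 0.449, so none of these differences passed the test. For RTS0065847 the difference was -0.30 (SE 0.43). All 4 probes were picked for their change in cortical tubules, so these differences are not a fair sample. In the control macrophage sums RTS0068347 had only 8 and 96 counts, RTS0075938 84 and 117, and RTS0065847 10 and 58.

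**Figure D5:**
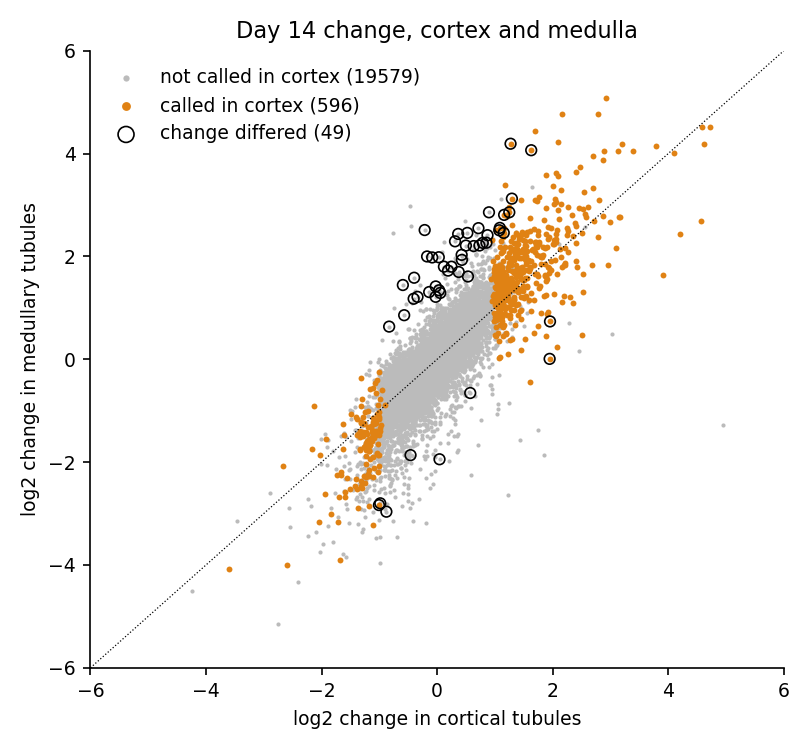
Each point is 1 probe, with its log2 change on day 14 in cortical tubules on the x axis and in medullary tubules on the y axis, and the dotted line marks equal change. The 596 probes called in cortex are orange, 470 of the 471 higher ones lay above 0 in the medulla, and black rings mark the 49 probes whose change differed.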

How the data were processed

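The authors deposited whole counts of unique molecular identifiers per probe and segment, made with the GeoMx NGS Pipeline (its version reads 3.1.1.5 in the headers and 1.1 in the labels), before background evaluation, filtering, and normalization. The paper left out 2 samples that it does not name, so no segment was left out here. Counts were summed over the cortical tubule regions of each section, since regions of a section are not replicates. Probes were filtered by filterByExpr (minimum count 10, minimum total 15), which kept all 20175. All 14 sums of the 7 groups were normalized by the upper quartile and shared 1 estimate of the spread in the robust quasi-likelihood test of edgeR 4.0.16 in R 4.3.3 with Benjamini-Hochberg adjustment. SE is the absolute log2 fold change over the square root of F. Differences of changes were tested with section in the model on 28 sums and called on the adjusted p alone. The alternatives used DESeq2 (version 1.42.0), limma (version 3.58.1), TMM, other replicates, thinning, and sections left out. The script was tested on counts simulated with a fixed spread and no difference between sections beyond it. That setting is simpler than these data, so it tests the code and not the calls. Named probes were the 2 highest and 2 lowest changes among called probes whose segments did not overlap. A pseudocount of 0.5 CPM was used for log2 levels. The comparison, lists, and rules were chosen with earlier results of these data known. The samples share 1 plate and 1 sequencing run.

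The numbers 1 and 2 of the sections were checked for pairing. The difference of section 1 and section 2 correlated between groups at -0.52 to 0.65 over 21 pairs of groups, with 15 of them over 0.1, and at -0.33 for control and vehicle day 14. Not every pair was over 0.1 and no label says what a number shares, so the numbers were not taken as pairs.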

Additional observations from a re-analysis of the deposited data

Results flagged for a closer look

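In 36 groups of 4 segments, the gap of the lowest or highest value to the next was set against the range of the group, by Dixon's rule. The total count of 1 segment of vehicle day 14 section 1 passed it, at 2355614 counts, below the other 3 of its group. Chance marks about 1 group in 20.

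The change on day 14 differed between medullary and cortical tubules for 49 probes and between macrophage and tubule segments for 9 probes, by the test of the difference itself. The medullary regions of the control sections were unlike, as given above.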

How the results depend on the processing

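All 596 calls kept their direction under every alternative that tested them, while their number moved. Called higher and lower were 784 and 50 with TMM, 868 and 104 (972 in all) with DESeq2 on the sums, 918 and 176 (1094) with DESeq2 on regions as replicates, and 134 and 24 (158) with limma on mean log2 CPM. With regions in limma-voom and the section as a random effect, 350 were lower, and with only the 4 sums compared, 207. Without the macrophage-leaning probes, an alternative chosen after seeing the data, 383 were called, 297 of them higher. No other setting moved a count beyond 1.5 times, apart from the block and the sections left out. With the label prefix as a replicate block the calls were 548 higher and 234 lower. Crossing the control numbers, also chosen after seeing the data, gave 517 and 243. Leaving out 1 section gave 25 to 4855 calls, 24 to 822 higher and 1 to 4033 lower, 10 to 211 probes differing between medulla and cortex, and 0 to 49 between macrophage and tubule segments. With TMM the last count was 1. The cause of these shifts was not tested. The 4 named probes kept their sign in all 62 refits and their call in 55, and the 7 losses came from leaving out sections. Depth limits the comparison with macrophage segments, whose control sums held 43422 and 151890 counts.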
